A study of Mus musculus with 8 samples.

Results

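Stefins and cystatins are small protein inhibitors of cysteine proteases, and 7 of their genes were followed here in the mouse esophagus: Stfa1, Stfa2, Stfa2l1, Stfa3, Cstb, Cst3 and Cst6. The genes were taken by name from a table of 49315 gene identifiers, and all 7 were present. RNA of the whole esophagus was sequenced from 8 male C57BL/6J mice aged 8 weeks. The EoE33 group held 4 transgenic mice that overexpress the cytokine IL-33 in the esophagus, and the control group held 4 wild type littermates. Its subject is eosinophilic esophagitis, an allergic disease in which eosinophils enter the esophageal lining, and the comparison asks which transcripts differ when IL-33 is overexpressed. The promoter that drives the transgene is not named in the sources used here. The 7 genes were chosen by their known levels in these same 8 libraries, EoE33 against wild type, so their differences between the groups are given as descriptions, without p-values.

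Stefins stay inside the cell, while the cystatins proper carry a signal peptide and are secreted. Both block papain-like proteases such as the cathepsins by filling the cleft that holds the active site, reversibly and without being cut. The mouse has expanded the stefin A gene into a cluster of copies, which are known from squamous epithelium and from neutrophils. Cystatin M/E, encoded by Cst6, is known from cornifying epithelium, where it holds legumain and cathepsin L in check.

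Library depth ran from 17726292 to 24070822 counts. Levels are in CPM, counts scaled to a library of 1000000 after correction of library sizes by the trimmed mean of M values (TMM). Il33 itself was at 123, 127, 165 and 99.7 CPM in wild type replicates 1 to 4 and at 354, 393, 369 and 367 CPM in EoE33 replicates 1 to 4, with every EoE33 library above every wild type library. Keratinocyte and skeletal muscle markers, which a whole mouse esophagus should hold, were abundant in all 8 libraries. Wild type libraries 1 and 3 stood apart from the other 2. Summed over their markers, liver transcripts reached 134 CPM in wild type 1 against 3.81 to 10.3 CPM in the other wild type libraries, and airway transcripts reached 437 CPM in wild type 3 against 5.82 to 6.48 CPM. Of 16760 genes tested with edgeR, 63.4% passed an adjusted p of 0.05 between the groups, 31.3% higher and 32.1% lower in EoE33, so a call by itself sets no gene apart in these data. The median log2 fold change over all tested genes was -0.01.

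The 4 Stfa genes lie within one cluster on chromosome 16 and are near copies of each other, so their sequences bear on how far their counts can be told apart. In GENCODE M21 (GRCm38) the coding sequences of Stfa2 and Stfa2l1 were identical at 298 of 309 aligned bases (96.4%). Those of Stfa1 and BC100530, another stefin A gene, were identical at 285 of 291 (97.9%). The other pairs among the 4 Stfa genes reached 73.1% to 81.6%. Against this, Cstb shared 52.1% to 57.5% with the Stfa genes, and Cst3 shared 50.7% with Cst6. No stretch of 150 bases, the read length, occurred both in the longest transcript of one of the 7 genes and in a transcript of another gene. The longest identical run between the longest transcripts of each gene was 97 bases for Stfa2 with Stfa2l1 and 128 bases for Stfa1 with BC100530. The coding sequence of BC117090, a further stefin A gene, was 93.5% identical to that of Stfa1, with a run of 71 bases. With BC100530 it reached 95.2%, with a run of 138 bases. Shorter trimmed reads could still fall inside such runs. How multiply mapping reads were counted is not given in the sources used here, so the split among these copies carries that uncertainty.

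The promoters of the 4 Stfa genes are alike too, and again most so for Stfa2 and Stfa2l1. Over the 250 bases before the start in RefSeq (GRCm38.p6), Stfa2 and Stfa2l1 were 91.9% identical and the other pairs 80.8% to 83.9%. Gaps at the ends were left out here but counted for the coding sequences, so the 2 sets of percentages are not on 1 scale. In GENCODE M21 the Stfa1 and Stfa2 genes start further upstream, so their windows lie partly inside the genes. The windows of Stfa2l1 (chr16:36156561-36156810, plus strand) and Stfa3 (chr16:36455393-36455642, minus strand) are printed because these 2 genes show the most and the least difference between the groups with promoters that are 81.3% identical. Capitals mark the run of 15 bases that all 4 Stfa windows share and that 5 of 32851 RefSeq windows hold.
Stfa2l1: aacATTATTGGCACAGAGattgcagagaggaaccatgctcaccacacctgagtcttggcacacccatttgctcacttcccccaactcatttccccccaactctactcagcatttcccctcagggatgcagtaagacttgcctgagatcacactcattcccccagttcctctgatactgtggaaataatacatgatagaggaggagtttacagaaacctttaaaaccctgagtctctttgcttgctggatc
Stfa3: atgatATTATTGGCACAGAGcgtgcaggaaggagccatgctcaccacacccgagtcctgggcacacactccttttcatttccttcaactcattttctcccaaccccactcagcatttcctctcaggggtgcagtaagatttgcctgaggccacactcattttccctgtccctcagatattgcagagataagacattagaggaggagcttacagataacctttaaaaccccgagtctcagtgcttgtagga

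Among the stefin A genes, Stfa2l1 and Stfa2 were higher in EoE33, Stfa1 was lower and Stfa3 was at a like level in both groups. Stfa2l1 (ENSMUSG00000059657, chr16:36156811-36161953, plus strand) had 0 counts in each of the 4 wild type libraries and 50, 61, 96 and 40 counts in EoE33 replicates 1 to 4. These came to 2.38, 3.57, 4.14 and 1.99 CPM, a mean of 3.02 ± 1.0 CPM (SD, n = 4). Every EoE33 library held the transcript and no wild type library did, although the wild type libraries were on the whole the deeper ones. Set against a floor of 3 counts over the wild type group, the level was at least 94.6-fold higher in EoE33. In a single wild type library a floor of 3 counts corresponds to 0.127 to 0.132 CPM, so a lower level could be missed in 1 library at this depth. Such floors cover counting error only.

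Stfa2 (ENSMUSG00000022902, chr16:36403992-36408457, minus strand) was close to its detection limit in wild type, with 3, 9, 6 and 6 counts or 0.127, 0.395, 0.254 and 0.257 CPM in replicates 1 to 4. In EoE33 it had 60, 43, 68 and 79 counts, or 2.86, 2.51, 2.93 and 3.94 CPM. The groups did not overlap and left a wide gap between the highest wild type and the lowest EoE33 library. The means were 0.258 ± 0.109 and 3.061 ± 0.613 CPM (SD, n = 4 each), an 11.7-fold difference with a log2 fold change of 3.54 (standard error 0.31). Stfa2 and Stfa2l1, the pair closest in sequence, did not keep one ratio across the EoE33 libraries: there were 1.2, 0.705, 0.708 and 1.98 Stfa2 counts per Stfa2l1 count in replicates 1 to 4. Stfa2l1 therefore had more counts in EoE33 replicates 2 and 3, and Stfa2 in replicates 1 and 4.

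Stfa1 (ENSMUSG00000071562, chr16:36276951-36285373, plus strand) went the other way. It had 90, 103, 15 and 131 counts in wild type replicates 1 to 4 and 6, 12, 18 and 8 in EoE33, or 3.81, 4.52, 0.634 and 5.6 CPM against 0.286, 0.701, 0.776 and 0.399 CPM. The groups overlapped through wild type replicate 3, which lay inside the EoE33 range, while the other 3 wild type libraries lay well above every EoE33 library. The means were 3.642 ± 2.14 and 0.5405 ± 0.235 CPM (SD, n = 4 each), 6.68-fold lower in EoE33 with a log2 fold change of -2.74 (standard error 0.63). Without wild type replicate 3, the library with airway transcripts, the log2 fold change was -3.09, and with limma-voom in place of edgeR it was -2.42 and did not pass. That library was also the lowest of the wild type libraries for Stfa3 and for BC100530. Some keratinisation markers were low in it too: Krt1 was at 1.1 CPM there against 122 to 277 CPM in the other wild type libraries. Krt10 was at 13.3 against 62.1 to 128 CPM, Flg at 19.0 against 158 to 229 CPM and Ivl at 3.04 against 5.83 to 8.38 CPM. Others were not low: Krt4, Krt13, Tgm3, Dsg1a, Hrnr, Cnfn and Crct1 had their highest wild type level in it, and Lor lay within the range of the other wild type libraries. The summed suprabasal keratinocyte markers were also highest in it, at 91298 CPM. The part of the airway transcripts or of these markers in the Stfa1 level was not tested.

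Stfa3 (ENSMUSG00000054905, chr16:36450537-36455392, minus strand) had 96, 121, 45 and 108 counts in wild type and 80, 28, 73 and 99 counts in EoE33, or 4.07, 5.31, 1.9 and 4.62 CPM against 3.81, 1.64, 3.15 and 4.94 CPM. The ranges overlapped almost whole, with 1 low library in each group, wild type replicate 3 and EoE33 replicate 2. Its means were 3.974 ± 1.47 and 3.383 ± 1.38 CPM (SD, n = 4 each), and the log2 fold change of -0.23 was smaller than its standard error of 0.38. It moved between -0.46 and 0 as single libraries were left out.

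**Figure D1:**
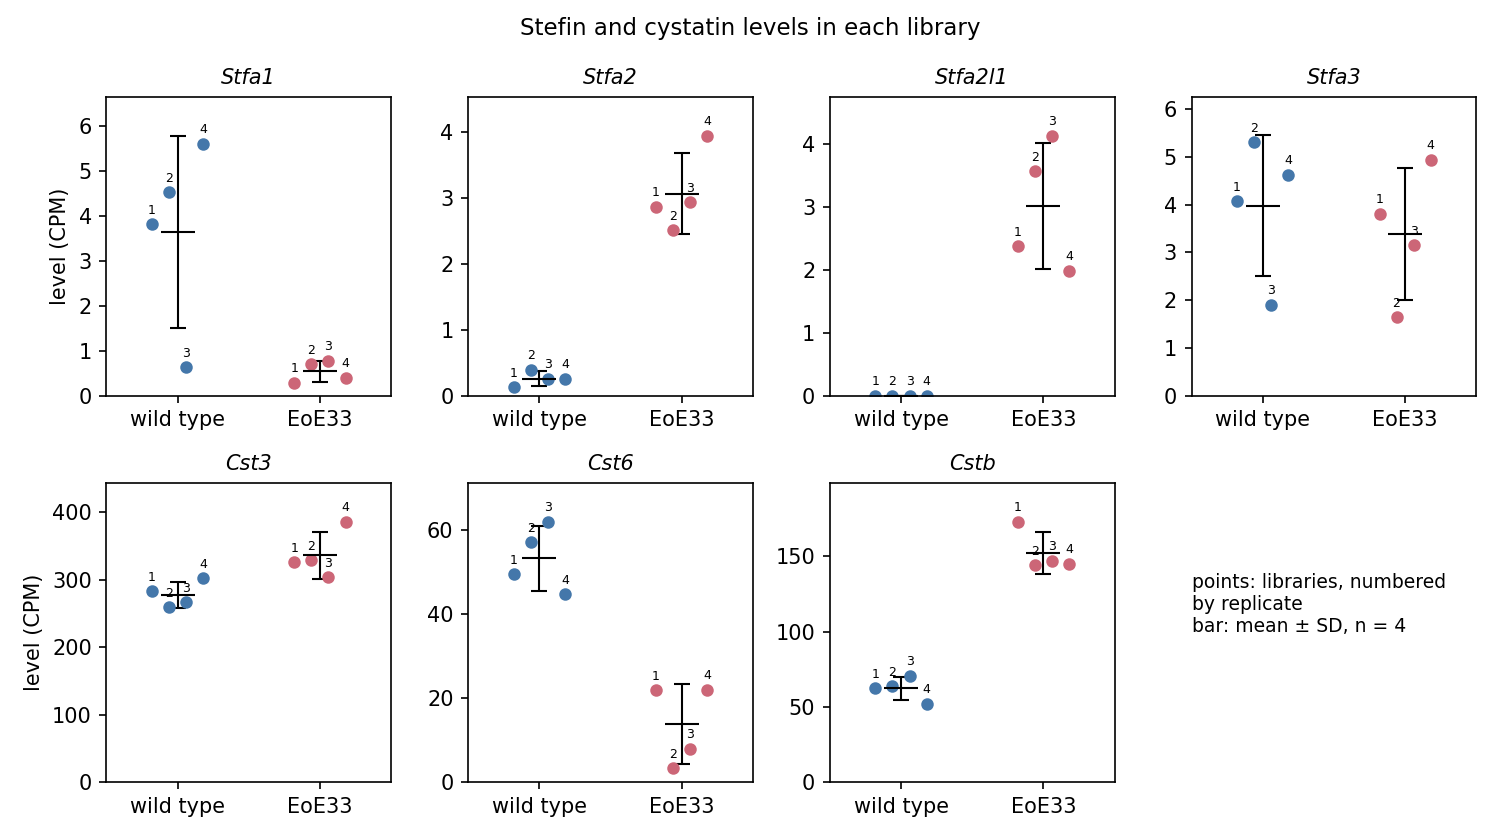
Levels of the 7 genes in CPM (vertical axes, each from 0) in the 4 wild type (blue) and 4 EoE33 (red) libraries, with points numbered by replicate and bars giving mean ± SD. EoE33 points lie above all wild type points for Stfa2, Stfa2l1, Cst3 and Cstb and below them for Cst6, while the groups overlap for Stfa1 and Stfa3.

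Added up, the 4 Stfa genes differed less between the groups than Stfa1, Stfa2 and Stfa2l1 did singly. Their summed level was 8.01, 10.2, 2.79 and 10.5 CPM in wild type replicates 1 to 4 and 9.35, 8.42, 11 and 11.3 CPM in EoE33, with overlapping ranges. The log2 fold change of the sum was 0.35 (standard error 0.35), against single values from -2.74 in Stfa1 to at least 6.56 in Stfa2l1. What differed was which copy the counts came from. Stfa1 gave 22.7% to 53.5% of the 4 genes' counts in wild type and 3.06% to 8.33% in EoE33. Stfa2 gave 1.59% to 9.09% and 26.7% to 35.0%, and Stfa2l1 gave none in wild type and 17.7% to 42.4% in EoE33. Stfa3 gave the largest share in 3 of 4 wild type libraries, 44.1% to 68.2% over the group. In EoE33 it gave 19.4% to 43.8%, still the largest share in replicates 1 and 4. No share of Stfa1, Stfa2, Stfa2l1 or Stfa3 in EoE33 reached into its wild type range. For Stfa3 the gap was narrow, 44.1% in wild type replicate 4 against 43.8% in EoE33 replicate 4. Shares of 1 sum are not independent, since a rise in one lowers the others.

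**Figure D2:**
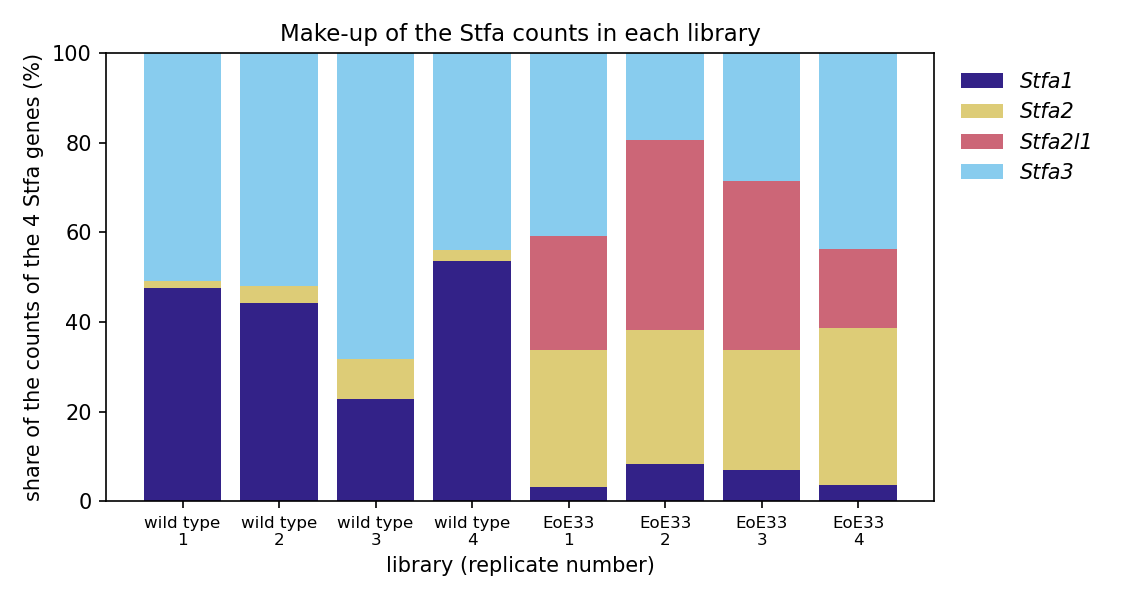
Share of the summed counts of Stfa1, Stfa2, Stfa2l1 and Stfa3 (vertical axis, percent) in each library (horizontal axis). Stfa1 takes 22.7% to 53.5% in wild type and at most 8.33% in EoE33, where Stfa2 and Stfa2l1 together fill over 50% of each bar.

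Within the wider cluster of 10 stefin A genes, the 4 Stfa genes were minor in counts: they gave 2.31% to 7.35% of the cluster's counts in wild type and 4.15% to 9.84% in EoE33. Csta1, whose product is likewise a stefin A, gave 73.9% to 94.7% and 64.0% to 75.9%. The cluster as 1 summed feature had a log2 fold change of 0.23 (standard error 0.32), while the median over its 8 tested genes was 0.95. Stfa1 also parted from its closest copy. BC100530 had 3.93 to 5.07 counts for each Stfa1 count in the 4 wild type libraries, wild type replicate 3 included, and 142, 14.1, 29.6 and 174 in EoE33 replicates 1 to 4. In wild type the 2 genes thus varied together between libraries, and in EoE33 this was not seen. The EoE33 ratios rest on only 6, 12, 18 and 8 Stfa1 counts, against 169 to 1388 counts of BC100530. Counting error and a few misassigned reads could therefore move these ratios much.

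Cstb, which encodes the single stefin B found in most cells, was higher in EoE33 with little spread. The gene (ENSMUSG00000005054, chr10:78425669-78427622, plus strand) was at 62.4, 63.6, 70.7 and 52.1 CPM in wild type replicates 1 to 4 and at 173, 144, 147 and 145 CPM in EoE33. Its groups stood far apart, and replicate 1 was the high one of the EoE33 libraries. The means were 62.21 ± 7.64 and 152.3 ± 14.0 CPM (SD, n = 4 each), 2.45-fold higher with a log2 fold change of 1.29 (standard error 0.1). Its value stayed between 1.21 and 1.35 as each library was left out in turn.

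Of the 2 secreted cystatins, Cst3 was slightly higher and Cst6 lower in EoE33. Cst3 (ENSMUSG00000027447, chr2:148871722-148875692, minus strand) encodes cystatin C, the main cystatin of body fluids. It was at 283, 259, 267 and 302 CPM in wild type and at 326, 329, 304 and 386 CPM in EoE33. The groups did not overlap, but the highest wild type library and the lowest EoE33 library were next to each other. The means of 277.9 ± 19.2 and 336.4 ± 35.1 CPM (SD, n = 4 each) differed 1.21-fold, a log2 fold change of 0.28 (standard error 0.09). This was the least firm of the calls among the 7 genes: Cst3 no longer passed the edgeR threshold without wild type replicate 1, 2 or 3, at log2 fold changes of 0.28, 0.26 and 0.25.

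Cst6 (ENSMUSG00000024846, chr19:5344705-5349574, minus strand) had 1166, 1299, 1466 and 1043 counts in wild type and 458, 56, 184 and 440 in EoE33, or 49.4, 57.0, 61.9 and 44.6 CPM against 21.8, 3.27, 7.93 and 21.9 CPM. Every EoE33 library lay below every wild type library, but EoE33 fell into a higher pair, replicates 1 and 4, and a lower pair, replicates 2 and 3. The means were 53.24 ± 7.72 and 13.74 ± 9.59 CPM (SD, n = 4 each), 3.86-fold lower with a log2 fold change of -1.95 (standard error 0.53). Highest over lowest was 6.7-fold in EoE33. Without EoE33 replicate 2 the log2 fold change was -1.63, and without wild type libraries 1 and 3 together it was -1.89 and no longer passed the edgeR threshold.

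All 7 genes passed the filter on low counts, although Stfa2l1 and Stfa2 could pass it only through EoE33 and Stfa1 only with its wild type libraries. By the threshold used for all genes, 4 of the 7 were called higher (Stfa2, Stfa2l1, Cst3 and Cstb), 2 were called lower (Stfa1 and Cst6), and Stfa3 was not called, beside 63.4% of all tested genes called. The groups did not overlap for 5 of the 7, beside 59.5% of all tested genes: all EoE33 libraries were above for 4 of them, beside 29.6%, and below for Cst6, beside 29.9%. These counts repeat the comparison by which the genes were chosen. Fewer cells of a type and less RNA per cell cannot be told apart in whole tissue, for any of the 7 genes.

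Per kilobase of exon, so that genes of unlike length can be set side by side, Cst3 was the most abundant of the 7 in wild type at 219.5 ± 15.2 CPM per kilobase, followed by Cstb at 103.2 ± 12.7. Cst6 came next at 13.02 ± 1.89, then Stfa3 at 9.646 ± 3.57, Stfa1 at 5.13 ± 3.01 and Stfa2 at 0.5478 ± 0.232 (SD, n = 4 each), with Stfa2l1 not detected. The library ranges of Cst6 and Stfa3 overlapped, and so did those of Stfa3 and Stfa1, so these neighbours did not differ beyond their spread. In EoE33, Cst3 at 265.7 ± 27.7 and Cstb at 252.5 ± 23.2 CPM per kilobase had overlapping ranges. Stfa3 at 8.212 ± 3.35, Stfa2l1 at 7.208 ± 2.39, Stfa2 at 6.499 ± 1.3 and Cst6 at 3.361 ± 2.35 each overlapped their next neighbour in that order, and Stfa1 was last at 0.7613 ± 0.331 with a range that overlapped that of Cst6. Cst3 and Cstb were thus far above the stefin A copies in both groups. By their means Stfa1 and Cst6 stood above Stfa2 and Stfa2l1 in wild type and below them in EoE33. The place of Cst6 in both groups depends on its exon length of 4090 bases, against 412 to 710 bases for the Stfa genes. Undivided, its EoE33 mean of 13.74 CPM lay above those of Stfa2 (3.061 CPM) and Stfa2l1 (3.02 CPM). Which Cst6 transcript the reads came from was not tested.

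The 7 genes did not vary together between EoE33 libraries. Replicates 1 and 4 were above replicates 2 and 3 for Cst6 and Stfa3, and likewise for Csta1 (171, 61.8, 80.7 and 152 CPM in replicates 1 to 4) and BC100530 (40.5, 9.88, 22.9 and 69.2 CPM). Stfa1 and Stfa2l1 had the opposite order, with replicates 2 and 3 above 1 and 4. So did Ngp, the gene of neutrophilic granule protein, a cystatin relative stored in neutrophils, at 2.57, 11, 8.75 and 1.3 CPM. Cst3, Cstb and Stfa2 showed neither split.

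**Figure D3:**
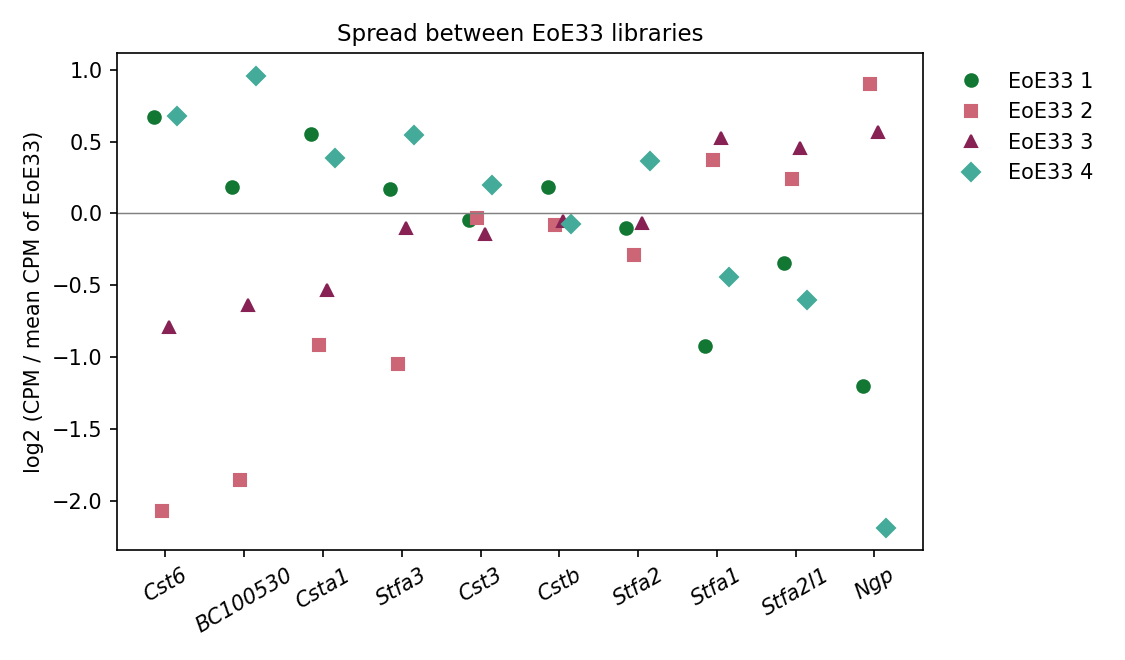
Level of each gene in the 4 EoE33 libraries relative to the EoE33 mean (vertical axis, log2 of CPM over mean CPM), for the 7 genes and for Csta1, BC100530 and Ngp (horizontal axis). Replicates 1 and 4 lie above replicates 2 and 3 for Cst6, BC100530, Csta1 and Stfa3, and below them for Stfa1, Stfa2l1 and Ngp.

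The markers of cell layers differed between the same libraries. Summed over 6 cornified-layer genes the level was 3470, 480, 1109 and 2944 CPM in EoE33 replicates 1 to 4, against 12849 to 17355 CPM in wild type, and over 6 suprabasal keratinocyte genes it was 34499, 14287, 20417 and 31064 CPM, against 52067 to 91298 CPM. Both sums had replicates 1 and 4 above 2 and 3, the order seen for Cst6 and Stfa3. Summed neutrophil markers were at 1866, 2696, 1776 and 1124 CPM in EoE33 and at 17.2 to 186 CPM in wild type. Ltf, the gene of lactoferrin, gave 85.1% to 93.7% of that sum in EoE33 and was also at 167 CPM in wild type replicate 3, the library with airway transcripts. Of the 8 tested neutrophil markers, 6 were highest in EoE33 replicate 3, as Stfa2l1 was, and 7 had replicates 2 and 3 above 1 and 4, all but Ltf. Mmp9, the gene of a neutrophil gelatinase, was at 22.7, 37.6, 46.4 and 21.6 CPM in EoE33 replicates 1 to 4, the same order as Stfa2l1. No other tested neutrophil marker had that full order: Retnlg, Mmp8, Cxcr2, Csf3r and Trem1 had replicate 4 above 1, and Ly6g and Ltf were highest in replicate 2. With 4 libraries no correlation was computed, and the part of these cells in the levels of the 7 genes was not tested.

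Between the groups, all 8 tested neutrophil markers of 10 and all 5 tested eosinophil markers of 6 were called higher in EoE33 by edgeR. The neutrophil genes Elane and Mpo, which mark immature cells, were too low to be tested, with 3 and 3 counts over wild type and 8 and 15 over EoE33. Of 10 macrophage and dendritic cell markers 9 were higher and 1, Zbtb46, was lower. Of 6 basal keratinocyte markers 5 were higher and Krt15 was lower, and their summed levels were 3352 to 4864 CPM in wild type against 15829 to 19373 CPM in EoE33. All 6 suprabasal markers and 4 of 6 cornified-layer markers were lower, as were all 6 skeletal muscle markers and 4 of 5 fibroblast markers. No marker of these lists was at 0 in every library of a group. The 7 stefin and cystatin genes were therefore compared between tissues whose cell makeup also differed, and the 2 cannot be told apart here.

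Genes with the most similar course over the 8 libraries were looked up for each of the 7, by the root mean square difference of mean-centred log2 CPM among 13896 genes with a mean of at least 1 CPM. Cst6 was closest to Atp6v1c2 (difference 0.15) and Il1f8 (0.19), and Cstb to Zc3h12a (0.06). Cst3 was closest to Il6ra (0.06) and Cacna1d (0.06). Matches of 3 Stfa genes were looser: Stfa2 with Atp6v0d2 (0.31) and Tmem26 (0.34), Stfa3 with Klf8 (0.33) and Srgap1 (0.33), and Stfa1 with Kng2 (0.44) and Mboat2 (0.6). For Stfa2l1, with 0 counts in wild type, the measure depends on the prior count, so no gene is named. Kng2 encodes a kininogen, which itself contains cystatin domains. With 4 libraries a group, such likeness rests mostly on the difference between the groups.

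Other genes of the cystatin superfamily were mixed, as the 7 were. The 34 listed names, some of them second names of the same gene, came to 26 genes in the table, and 11 could be tested. Of these, 3 were called higher, 3 lower and 5 not called, with a median log2 fold change of -0.02 beside -0.01 for all tested genes. These were 6 called of 11, beside the 63.4% of all tested genes. Gm5483, a stefin A gene of the same cluster, had 6 counts over wild type and 272 over EoE33, a log2 fold change of 5.59 (standard error 0.65, edgeR adjusted p = 7.84e-05), and was higher in 4 of 4 EoE33 libraries. Its coding sequence was 96.9% identical to that of 2010005H15Rik, with an identical run of 99 bases. The split between these copies is therefore uncertain too. 2010005H15Rik itself had 1 count over wild type and 15 over EoE33. Cst7, which encodes the cystatin F of immune cells, was 8.32-fold higher (adjusted p = 0.000291), and Ngp 24.5-fold higher (adjusted p = 0.0036, edgeR).

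Those lower were Fetub, the gene of the plasma and epithelial cystatin fetuin-B, from 371.3 ± 99.4 to 22.4 ± 12.4 CPM (SD, n = 4 each, edgeR adjusted p = 0.000151), Rarres1 at 7.89-fold lower (edgeR adjusted p = 9.78e-06) and Kng2 at 4.03-fold lower (edgeR adjusted p = 0.0078). All 3 were below the wild type mean in 4 of 4 EoE33 libraries, and Kng2 overlapped between the groups through wild type replicate 3, as Stfa1 did. Csta1 was at 117.6 ± 11.4 CPM in wild type against 116.2 ± 53.1 CPM in EoE33, a log2 fold change of -0.02 (standard error 0.31, edgeR adjusted p = 0.967), with its EoE33 libraries on both sides of the wild type range. BC100530 had a log2 fold change of 1.13 (standard error 0.71, edgeR adjusted p = 0.2). The stefin A copies thus ranged from Stfa1, lower, through Csta1 and Stfa3, not called, to Stfa2, Gm5483 and Stfa2l1, higher.

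**Figure D4:**
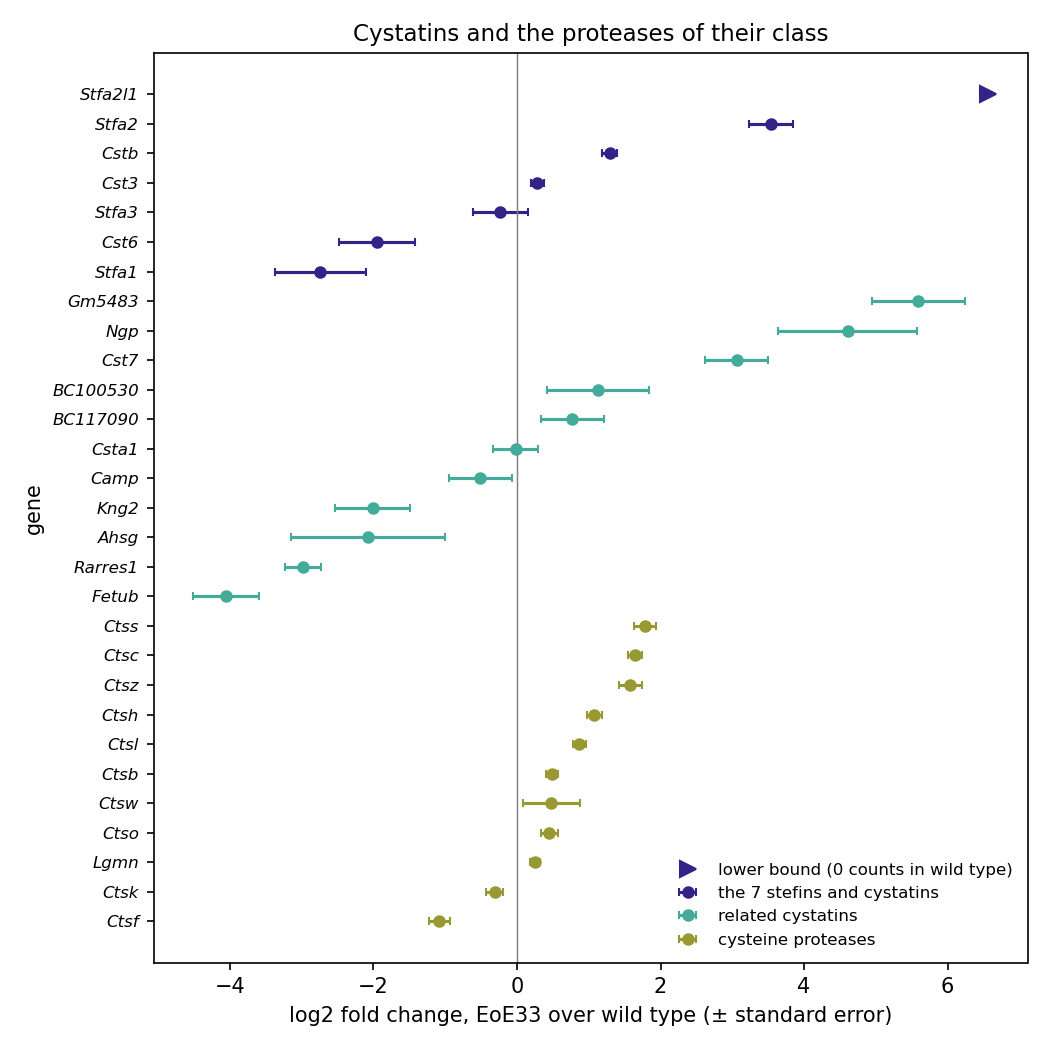
Log2 fold change of EoE33 over wild type (horizontal axis, bars giving the standard error) for the 7 stefins and cystatins, the 11 tested related cystatins and the 11 cysteine proteases, in order within each set. The triangle is the lower bound of Stfa2l1 at 6.56; the cystatin sets lie on both sides of 0, and 9 of 11 proteases lie above it.

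The proteases that these inhibitors bind were mostly higher. Of 11 cysteine proteases tested, 8 were called higher, 1 lower and 2 not called by edgeR, beside 31.3% of all tested genes called higher, and their median log2 fold change was 0.49. Without wild type libraries 1 and 3 together, 6 were called higher. Ctss, the gene of cathepsin S of antigen-presenting cells, was 3.44-fold higher (adjusted p = 1.35e-05), Ctsc, whose product activates granule serine proteases, 3.12-fold (adjusted p = 2.1e-06) and Ctsz 2.99-fold (adjusted p = 3.35e-05, edgeR). Ctsh was 2.12-fold, Ctsl 1.83-fold, Ctsb 1.4-fold and Lgmn, the gene of legumain, 1.19-fold higher. Ctsf was the 1 called lower, at 2.12-fold (edgeR adjusted p = 0.000229), and Ctsk, from 15.68 ± 2.44 to 12.67 ± 0.942 CPM (SD, n = 4 each), missed the threshold (edgeR adjusted p = 0.0507). The legumain and cathepsin L genes were thus higher in the group where Cst6, the gene of an inhibitor of both, was lower. Cstb and Cst3, whose products also block cathepsins, were higher in that group. A link between the levels of inhibitors and proteases was not tested.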

How the data were processed

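PolyA-selected RNA of whole esophagus was sequenced in paired-end mode, per the labels' protocols. The authors deposited raw counts per gene, with Trimmomatic 0.36, STAR 2.5.2b, featureCounts, Subread 1.5.2 and the build GRCm38 listed, with no role given, in the submitters' processing notes. Whether strand was used, which annotation served and how multiply mapping reads were treated is not stated there or in the labels. Columns were assigned by the spreadsheet letter in each sample's description, and all 8 were used. Of 49315 identifiers 49056 matched GENCODE M21 and 259 did not.

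Levels (CPM) and tests were computed from the deposited counts with edgeR 4.0.16 in R 4.3.3 (TMM, filterByExpr by group, robust quasi-likelihood F test on genotype, Benjamini-Hochberg over 16760 genes, threshold 0.05). Standard errors were derived from the F statistic. Depth was 17726292 to 24070822 counts. Each library was taken as 1 mouse, since the labels give 4 mice and 4 libraries a group. Replicates of a group all differed by more than sampling noise, with a chi-square of 10.38 to 70.09 per degree of freedom. The procedure was tested on simulated counts. Same-numbered libraries did not deviate together (correlations -0.14 to 0.085), so replicate numbers were not used as pairs.

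The 7 genes and the gene lists were chosen with earlier results of these data known. Named besides the 7 were up to 8 genes past the threshold of each list by smallest p, those with a mean of at least 10 CPM that did not pass, 2 similar genes for each of the 7, and Il33. The similar genes of Stfa2l1, 1 of Cstb and the motif search of promoters are not reported here. Zbtb46, Krt15, Elane, Mpo, Ltf, Mmp9, Krt1, Krt10, Flg and the other single cell type markers were named after their values were seen. Protein identity was not computed, since no protein sequences were used here. Promoters of Cst6 and Cstb were not analysed here. Alternatives were other scalings, DESeq2 1.42.0, limma-voom (limma 3.58.1), other filters, the replicate number as a block, exon length of the longest transcript, and leaving out libraries.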

Additional observations from a re-analysis of the deposited data

Results flagged for a closer look

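Cstb in EoE33 was flagged because its highest library, replicate 1 at 173 CPM, stood apart from the other 3 EoE33 libraries at 144 to 147 CPM by more than Dixon's limit for a group of 4. Of 50 groups of 4 libraries checked, this was the 1 flagged, and chance flags about 1 in 20 groups. Without that library the log2 fold change of Cstb was 1.23.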

How the results depend on the processing

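The directions of the calls among the 7 genes held under all scalings, tools and filters run and with each library left out. Stfa1 did not pass with limma-voom (-2.42). The fitted log2 fold change of Stfa2l1, with 0 counts over wild type, depends on the fitting method, at 9.05 in edgeR, 8.6 in DESeq2 and 7.1 in limma-voom. Leaving out single libraries moved Cst3 between 0.2 and 0.33, with its call lost in 3 of 8 cases. Without wild type libraries 1 and 3 together, Cst3 (0.26) and Cst6 (-1.89) no longer passed. With the length of the longest transcript, Cst3 was at 323.1 CPM per kilobase in wild type and 391.1 in EoE33, and the order of the 7 genes was the same. That length equals the exon length for Stfa2, Stfa2l1, Stfa3 and Cstb and is near it for Cst6 (3951 and 4090 bases). The order was therefore hardly tested by this change. Among related cystatins, 6 were higher in edgeR without a low-count filter, and 6 higher and 5 lower in DESeq2, which was run without that filter too, so more of them entered both. Among cysteine proteases, 2 rather than 1 were lower with upper-quartile scaling, with library size only and with at least 1 CPM in 4 libraries, and 1 to 2 with single libraries left out. Those higher numbered 6 rather than 8 without wild type libraries 1 and 3 together. Other scalings moved the median of all genes by at most 0.02. Summed to 1 feature, the stefin A cluster had a log2 fold change of 0.23, against a median of 0.95 over its tested genes. With the replicate block, calls numbered 4936 higher and 5120 lower, and Stfa1 was at -2.5, Stfa2 at 3.55, Cst3 at 0.27, Cst6 at -2.21 and Cstb at 1.3, with no call among the 7 changed. Under at least 1 CPM in 4 libraries, Stfa1 was not tested. Depth limits the fold changes of Stfa2l1, Stfa2 and Stfa1, with 0 and 24 counts over wild type and 44 over EoE33.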
